A study of Mus musculus with 12 samples.

Results

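The 10 genes described here are activity-induced immediate early genes, measured by RNA-seq in retinas and striata of mice with and without the R6/1 transgene. They were chosen by symbol as Fos, Fosb, Junb, Egr1, Egr2, Egr3, Egr4, Arc, Npas4 and Nr4a1, and all 10 were among the 17579 genes of the count table. 4 groups were sequenced, R6/1 retina, R6/1 striatum, wt retina and wt striatum, with 3 libraries each. The R6/1 line carries a transgene with exon 1 of human huntingtin (HTT) and an expanded CAG repeat, placed on the human HTT promoter, and models Huntington's disease (HD). The wt littermates lack it. Every animal was a male of C57Bl/6 background (C57BL/6 J in the methods) aged 13 to 15 weeks, kept without any treatment. Retina and striatum came from the same animals, and each library pooled the RNA of 3 to 4 mice, so that the spread given below is between pools and not between mice. The hour of dissection and the light received before it are not given in the sources used here.

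Immediate early genes are transcribed within minutes of neuronal firing or growth factor signalling, without new protein synthesis. Calcium entry and the MAP kinase cascade act on factors already bound at their promoters, CREB at the cAMP response element (CRE) and serum response factor with its ETS partners at the CArG box. Most of the products are transcription factors (the FOS and JUN subunits of AP-1, the zinc-finger EGR proteins, the bHLH-PAS factor NPAS4 and the orphan nuclear receptor NR4A1), whereas Arc encodes a protein that controls the trafficking of synaptic glutamate receptors. In the striatum they are standard readouts of dopamine and glutamate input to medium spiny neurons, and in the retina several of them respond to light.

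The promoters are shown because the letters they share are the core of 1 of the elements named above, the CRE. RefSeq promoter sequences on GRCm38.p6 were found for 7 of the 10 genes (not for Egr1, Egr3 and Arc), and the 250 bases before the start site were searched on both strands. The CRE core TGACG was present in at least 1 window of 7 of 7 genes, which is a description of letters and not of binding. Per promoter and not per gene, it was in 17.8% of all 32851 windows of this length, which belong to 27025 genes. Egr2 has 5 annotated start sites. The core was found in the overlapping windows of 3 of them, of which the most upstream is printed, and not in the 2 windows further upstream. The Egr2 window counted above was thus taken from those that hold the core. The complete CRE, TGACGTCA, was in none of the windows, against 1.55% of all promoters. A CArG box was found only in Egr2 among the 7 (1.47% of all promoters), the TATA box TATAAA only in Fos (12.4%), and the EGR site GCGNGGGCG in Fosb and Nr4a1 (4.7%). An element further upstream than these 250 bases would be missed. The printed windows are chr10:67537619-67537868 on the plus strand for Egr2, chr15:101266596-101266845 on the plus strand for Nr4a1, chr8:84978749-84978998 on the minus strand for Junb, chr12:85473640-85473889 on the plus strand for Fos and chr7:19310046-19310295 on the minus strand for Fosb. Those of Egr2 and Nr4a1 lie inside introns of longer transcripts of the same gene in GENCODE vM21, and the others upstream of the gene, apart from the last 6 bases of the Fosb window. Capitals mark the CRE core, the TATA box or the CArG box.
Egr2: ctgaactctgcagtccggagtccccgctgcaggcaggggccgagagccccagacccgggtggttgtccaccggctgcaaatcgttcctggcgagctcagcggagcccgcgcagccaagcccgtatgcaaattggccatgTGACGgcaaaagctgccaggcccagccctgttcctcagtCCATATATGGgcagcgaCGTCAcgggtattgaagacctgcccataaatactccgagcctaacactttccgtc
Nr4a1: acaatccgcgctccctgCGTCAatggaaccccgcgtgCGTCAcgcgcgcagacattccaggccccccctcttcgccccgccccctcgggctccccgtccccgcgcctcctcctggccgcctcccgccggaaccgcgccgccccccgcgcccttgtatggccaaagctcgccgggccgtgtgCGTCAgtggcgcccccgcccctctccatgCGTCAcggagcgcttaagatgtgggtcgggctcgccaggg
Junb: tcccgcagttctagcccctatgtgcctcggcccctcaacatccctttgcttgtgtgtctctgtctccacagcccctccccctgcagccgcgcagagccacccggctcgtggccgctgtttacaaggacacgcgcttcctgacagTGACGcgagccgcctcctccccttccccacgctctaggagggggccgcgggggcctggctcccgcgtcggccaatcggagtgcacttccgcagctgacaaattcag
Fos: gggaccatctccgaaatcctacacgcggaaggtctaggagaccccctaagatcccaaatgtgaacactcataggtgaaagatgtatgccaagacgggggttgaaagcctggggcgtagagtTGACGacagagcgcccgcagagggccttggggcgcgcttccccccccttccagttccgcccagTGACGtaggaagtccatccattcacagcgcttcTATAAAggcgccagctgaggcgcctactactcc
Fosb: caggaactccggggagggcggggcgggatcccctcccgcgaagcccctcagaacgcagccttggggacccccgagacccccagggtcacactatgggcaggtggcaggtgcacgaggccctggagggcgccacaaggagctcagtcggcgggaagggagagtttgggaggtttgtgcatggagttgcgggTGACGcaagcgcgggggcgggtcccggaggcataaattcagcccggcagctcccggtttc

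**Figure D1:**
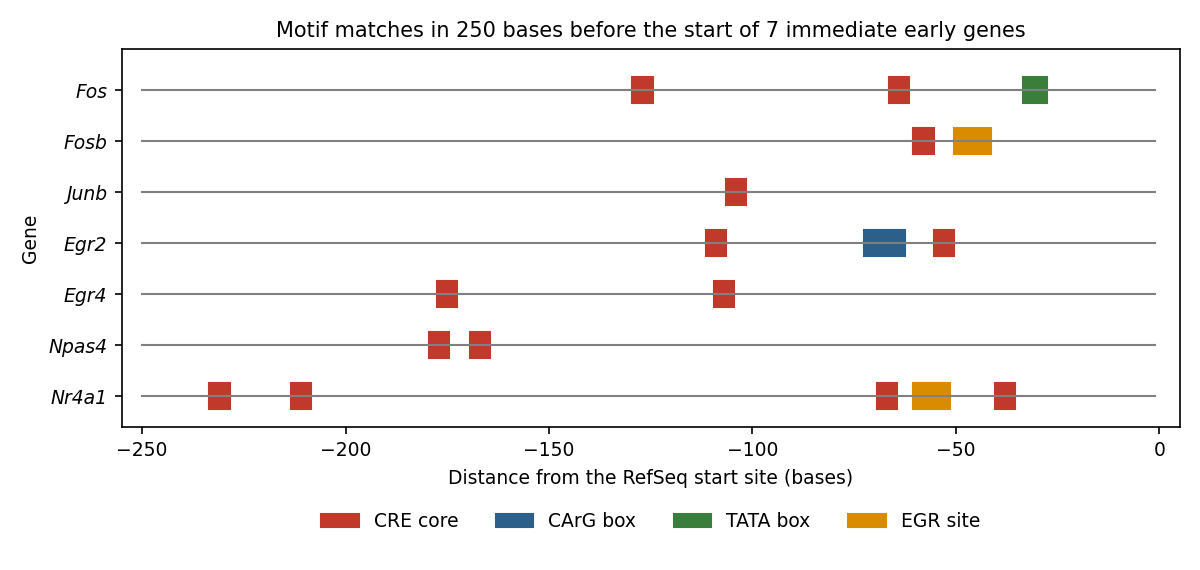
Positions of motif matches (coloured boxes) in the 250 bases before the RefSeq start site of 7 immediate early genes, with distance from the start site in bases on the x axis and 1 line per gene. A CRE core is present on all 7 lines, with 4 in Nr4a1, and the CArG box of Egr2 stands between its 2 CRE cores. The line of Egr2 shows a window taken from those that hold the core.

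Library totals ran from 15885261 to 22432431 counts in R6/1 libraries of both tissues and from 14070445 to 20159277 in wt libraries. Levels below are counts scaled to library size (CPM) with TMM normalization over the 12 libraries. Fold changes are R6/1 over wt on the log2 scale with their standard error (SE) unless stated, and a gene was called at an adjusted p under 0.05 in the quasi-likelihood test of edgeR with Benjamini-Hochberg adjustment over all genes tested. The tissues matched their labels: the summed level of 8 rod markers was 18353 to 26030 CPM in R6/1 retinas and 60743 to 68937 CPM in wt retinas, and at most 5.88 CPM in any striatum. The summed level of 12 medium spiny neuron markers was 1181 to 2242 CPM in R6/1 striata and 3954 to 5472 CPM in wt striata. R6/1 retina replicate 3 stood apart by its lens and pigment epithelium markers (556 CPM, against 51.7 to 118 CPM in the other retinas), and R6/1 striatum replicate 3 by its choroid plexus markers (156 CPM, against 18.7 to 33.6 CPM in the other striata). Their part in the results was not tested beyond leaving each library out.

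In the R6/1 striatum, 9 of the 10 genes had a negative log2 fold change, with a median of −0.72 against 0.01 over all genes tested. Only Egr2 was called lower in the fit without a replicate block (1 of 10, against 1.32% of all genes called lower) and none was called higher (against 0.132%). DESeq2 called Egr1, Egr2, Egr3 and Nr4a1 lower (4 of 10, against 4.81% of all genes) and none higher. An unadjusted edgeR p under 0.05 was reached by 7 genes, all of them negative. This count has no share over all genes beside it and is a description. The deviations of equally numbered R6/1 and wt striatal pools from their group means went together (correlations of 0.274, 0.329 and 0.257 over 10445 genes). The unequally numbered R6/1 replicate 3 and wt replicate 1 reached 0.240, and no label says that equal numbers pair the pools. In the retinas of the same animals, equally numbered R6/1 and wt pools gave 0.124, −0.0943 and 0.0511, so the pairing was not seen there. The result is also given with the replicate number as a block. The p-values with the block rest on this unlabelled pairing, which was seen in the striatum only. With that block Egr1, Egr2, Egr3, Arc, Npas4 and Nr4a1 were called lower (6 of 10, against 7.11% of all genes). Fewer cells of a type and less RNA per cell cannot be told apart in bulk tissue.

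The EGR family encodes zinc-finger factors that bind GC-rich sites in the promoters of later-acting neuronal genes. Egr2 (ENSMUSG00000037868; GRCm38 chr10:67535475-67542188), which is also the myelination factor Krox20, was at 1.18, 1.33 and 2.36 CPM in R6/1 striata and at 5.44, 7.02 and 8.17 CPM in wt striata. The highest R6/1 pool was below the lowest wt pool, and the log2 fold change was −2.08 (SE 0.27, adjusted p = 0.0150 by edgeR). The call ended when wt replicate 1, wt replicate 3 or R6/1 replicate 1 was left out, with adjusted p-values of 0.0862, 0.0935 and 0.0780. In these 3 fits 1, 5 and 6 of all genes were called lower, against 220 in the fit of 6 libraries and 1201 without wt replicate 2. The fold change of Egr2 stayed between −2.44 and −1.92 over the 6 fits that each left out a library. Egr3 (ENSMUSG00000033730; chr14:70077203-70082614), a target of EGR1 and a regulator of receptor genes, was at 83.9, 59.5 and 81.1 CPM in R6/1 striata and at 159, 121 and 184 CPM in wt striata. The groups did not overlap, and replicate 2 was the lowest pool of both genotypes. Its log2 fold change was −1.05 (SE 0.19), with an edgeR adjusted p of 0.0544 without the block and of 1.07e-05 with it. Leaving out single libraries moved its adjusted p between 0.0082, without wt replicate 2, and 0.228, without wt replicate 1. Egr1 (ENSMUSG00000038418; chr18:34859823-34864984), known also as Zif268, was at 125, 88.2 and 131 CPM in R6/1 striata and at 196, 176 and 202 CPM in wt striata. Again no pools overlapped and replicate 2 was lowest in both genotypes, and the log2 fold change was −0.74 (SE 0.15, edgeR adjusted p = 0.0651, or 4.51e-04 with the block). Without replicate 2 of wt or of R6/1 it was called (0.0394 and 0.0208), and in the other 4 such edgeR fits the adjusted p was up to 0.258. Egr4 (ENSMUSG00000071341; chr6:85511121-85513589), the smallest of the family in exonic length, was at 7.38, 5.89 and 7.53 CPM in R6/1 striata and at 7.53, 8.40 and 11.0 CPM in wt striata. The ranges touched, and the log2 fold change of −0.38 (SE 0.17) was not called with or without the block (edgeR adjusted p = 0.268 and 0.137).

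Arc, Npas4 and Nr4a1 went with the EGR genes. Arc (ENSMUSG00000022602; chr15:74669083-74672570) was at 22.1, 29.5 and 47.2 CPM in R6/1 striata and at 47.2, 63.6 and 80.4 CPM in wt striata. The highest R6/1 pool was level with the lowest wt pool, and the log2 fold change of −0.95 (SE 0.32) had an edgeR adjusted p of 0.187, against 5.17e-05 with the block. Npas4 (ENSMUSG00000045903; chr19:4984355-4990316), a factor induced by calcium entry and few other stimuli, was at 6.45, 9.38 and 13.7 CPM in R6/1 striata and at 14.5, 15.0 and 19.0 CPM in wt striata. No pools overlapped, and the log2 fold change was −0.71 (SE 0.26, edgeR adjusted p = 0.191, or 0.0069 with the block). Nr4a1 (ENSMUSG00000023034; chr15:101254269-101274795), also called Nur77, was at 21.4, 23.8 and 34.4 CPM in R6/1 striata and at 35.7, 43.7 and 53.7 CPM in wt striata. Here too every R6/1 pool was below every wt pool, with a log2 fold change of −0.74 (SE 0.21, edgeR adjusted p = 0.131, or 1.48e-04 with the block).

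The 3 AP-1 genes were not called in either design. Junb (ENSMUSG00000052837; chr8:84974484-84978718), an AP-1 subunit that restrains c-JUN at many promoters, was at 17.1, 12.2 and 21.8 CPM in R6/1 striata and at 21.0, 23.9 and 27.3 CPM in wt striata. The groups overlapped by 1 pool and the log2 fold change was −0.50 (SE 0.21, edgeR adjusted p = 0.240, or 0.0577 with the block). Fos (ENSMUSG00000021250; chr12:85473890-85477273) was at 4.83, 7.23 and 12.6 CPM in R6/1 striata and at 7.47, 10.5 and 10.6 CPM in wt striata. The highest and the lowest value of the 6 both came from R6/1 pools, and the log2 fold change of −0.21 (SE 0.34) turned to 0.046 without R6/1 replicate 1. Fosb (ENSMUSG00000003545; chr7:19302696-19310051), whose truncated product ΔFosB accumulates in striatal neurons on repeated stimulation, was at 14.9, 9.47 and 13.4 CPM in R6/1 striata and at 11.95, 11.6 and 12.3 CPM in wt striata. The wt pools all lay within the range of the R6/1 pools, and the log2 fold change of 0.072 (SE 0.16) turned to −0.071 without R6/1 replicate 1. Over the 10 genes, 5 had every R6/1 pool below every wt pool (Egr1, Egr2, Egr3, Npas4 and Nr4a1), against 12.7% of all genes tested in that direction, and none had every R6/1 pool above (against 12.8%).

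**Figure D2:**
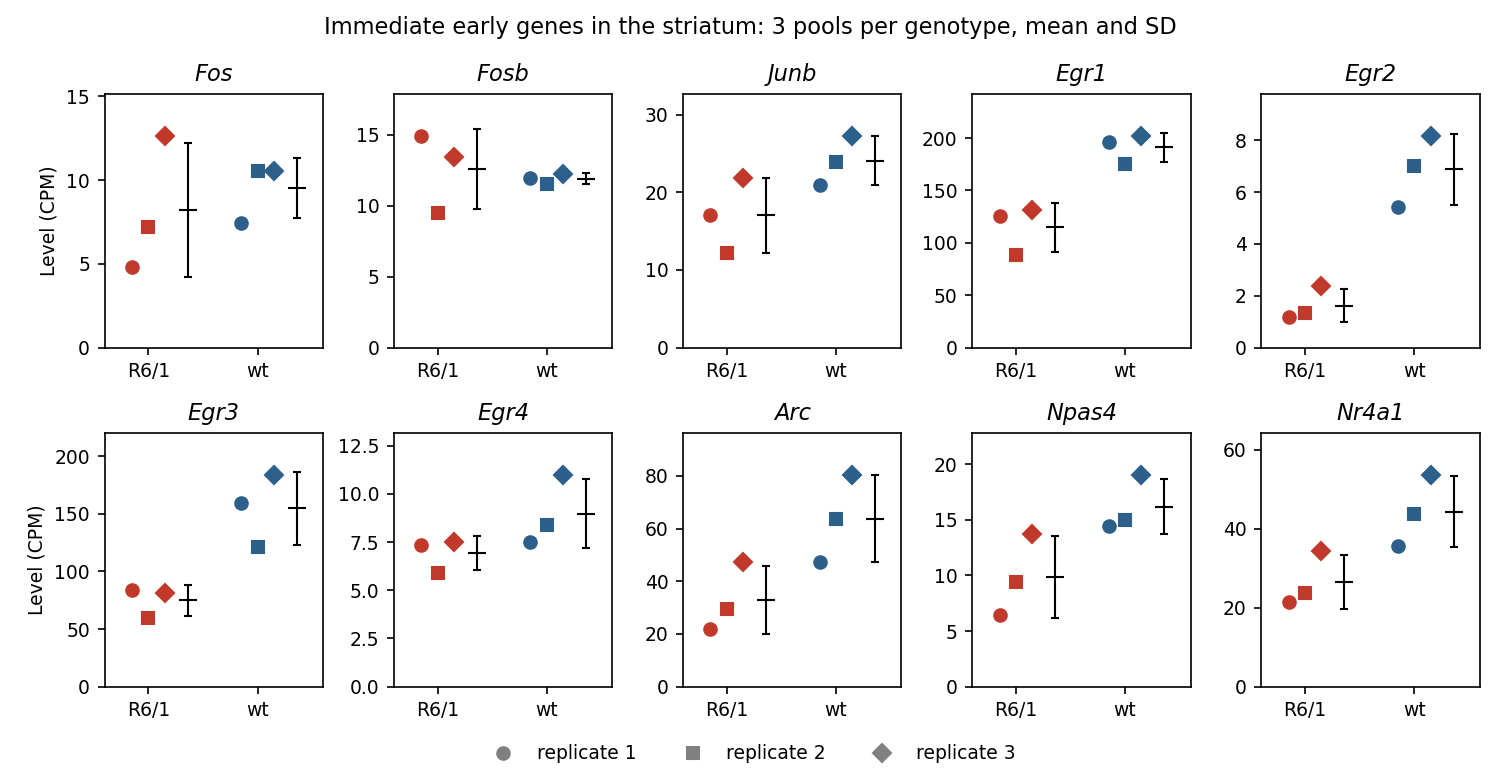
Levels of the 10 immediate early genes in the striatum (CPM, linear axes from 0), with 1 marker per pool for R6/1 on the left and wt on the right of each panel, and a black bar for the mean and SD of 3 pools. R6/1 pools are all below wt pools for Egr1, Egr2, Egr3, Npas4 and Nr4a1, with Egr2 at 1.18 to 2.36 CPM in R6/1 and 5.44 to 8.17 CPM in wt, whereas Fos and Fosb overlap.

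The same pools were high or low for many of the genes at once. All 10 genes were below their group mean in R6/1 striatum replicate 2 and all 10 were above it in R6/1 striatum replicate 3, as they were in wt striatum replicate 3. The summed level of the 10 genes was 305, 247 and 366 CPM in R6/1 striata 1, 2 and 3 and 506, 481 and 608 CPM in wt striata 1, 2 and 3. Medium spiny neuron markers moved in the same direction between genotypes and were also lowest in replicate 2 of both (2242, 1181 and 2212 CPM in R6/1 striata and 5472, 3954 and 4397 CPM in wt striata), with 12 of 12 fold changes negative, 2 called without and 10 with the block. The summed level of 10 markers of cortical excitatory neurons, cells outside the striatum, was 660, 626 and 783 CPM in R6/1 striata and 1307, 745 and 1514 CPM in wt striata, with 10 of 10 fold changes negative, none called in edgeR without the block (2 at an unadjusted p under 0.05, and 1 called by DESeq2) and 2 with it. Over all genes, 1.32% were called lower by edgeR without the block and 7.11% with it. The part of either cell type in the lower levels was not tested. Without R6/1 striatum replicate 3, the pool with high choroid plexus markers, Egr2 remained the only gene called (log2 fold change −2.44, edgeR adjusted p = 0.0291).

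Across the 6 striatal libraries, Pearson correlations between log2 CPM of pairs of the 10 genes had a median of 0.779 over 45 pairs, and 9 pairs were over 0.9, the highest being Arc with Nr4a1 at 0.994. The 5 negative pairs all included Fosb, and the lowest was Fosb with Npas4 at −0.210. These are descriptions over 6 libraries that share the genotype difference, the pool and the depth. Of 10506 other genes with a mean log2 CPM over 3, the 5 whose level followed the average of the 10 most closely were Gm49273 (r = 0.982), Dusp1 (r = 0.981), Tmem175 (r = 0.970), Fam120a (r = 0.969) and Scmh1 (r = 0.969). Dusp1, itself an early-response gene, encodes a phosphatase that inactivates MAP kinases, and was at 9.52 ± 2.18 CPM in R6/1 striata and 14.7 ± 1.501 CPM in wt striata (SD, n = 3 pools each).

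**Figure D3:**
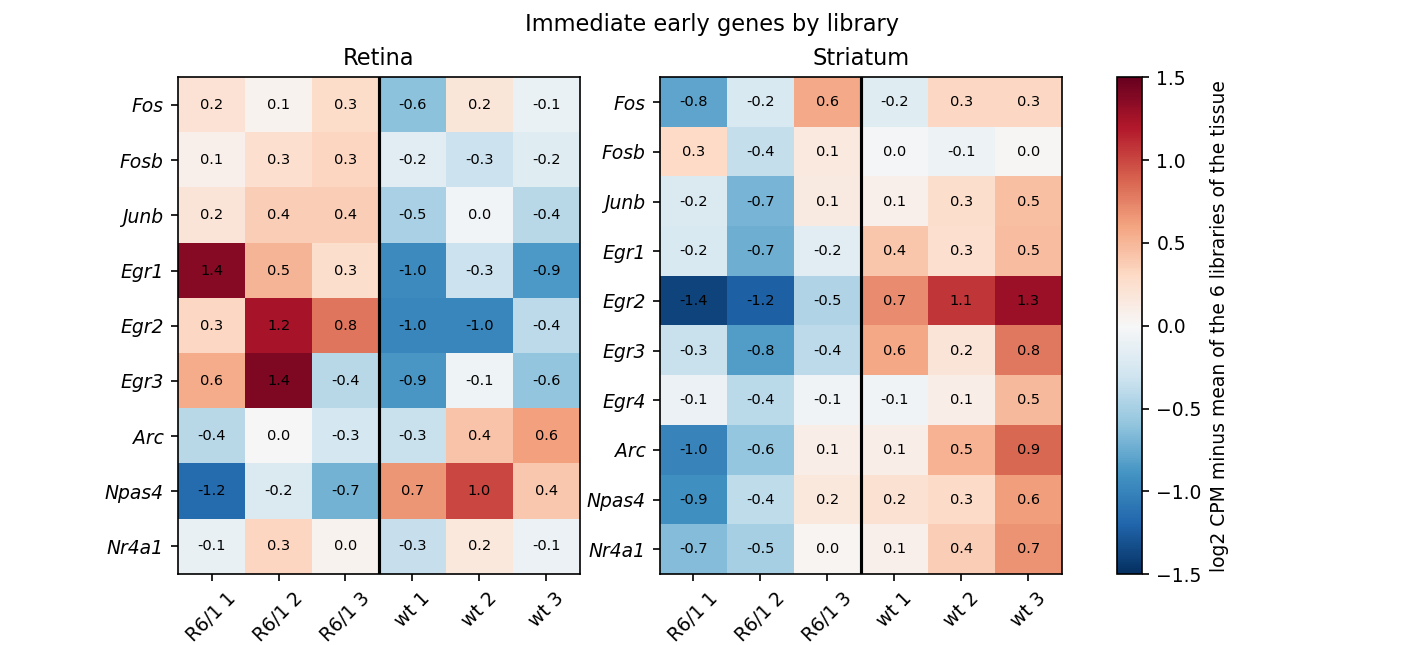
log2 CPM of each immediate early gene in each library minus the mean of the 6 libraries of its tissue (colour and printed value), with genes as rows, libraries as columns, retina left and striatum right, and R6/1 left of wt within a tissue. In the striatum the R6/1 columns are mostly negative and replicate 3 is the highest R6/1 pool for all genes but Fosb and Egr3, and in the retina Npas4 runs opposite to Egr1 and Egr2. Egr4 is left out of the retina because it was listed at 0 there.

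In the retina the genotype difference took another form. Of the 9 genes that could be tested, 7 had a positive log2 fold change, with a median of 0.48 against 0.01 over all genes tested. Junb and Egr2 were called higher in the R6/1 retina (2 of 9, against 9.58% of all genes called higher) and Npas4 was called lower (1 of 9, against 12.7% called lower). Egr2 had 16 counts in R6/1 retinas and 1 in wt retinas, so it passed the minimum of 10 counts only through R6/1. The count of 2 is therefore a description. Egr4 was listed at 0 in all 6 retinal libraries, and since no gene had a sum between 0 and 11 counts over a tissue, it is not taken as unexpressed.

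Npas4 was at 1.47, 2.93 and 2.05 CPM in R6/1 retinas and at 5.49, 6.95 and 4.55 CPM in wt retinas. All R6/1 pools were below all wt pools, with a log2 fold change of −1.35 (SE 0.24, edgeR adjusted p = 7.50e-04), and the gene was called in each of the 6 fits that left out a library. Junb was at 8.46, 9.52 and 9.53 CPM in R6/1 retinas and at 5.22, 7.17 and 5.50 CPM in wt retinas. The groups did not overlap, the log2 fold change was 0.65 (SE 0.15, edgeR adjusted p = 0.0035), and the call held in each of the 6 fits that left out a library. It was lost in 1 fit of all 12 libraries (edgeR adjusted p = 0.0536) and in DESeq2 with the block (0.0767). Egr2 rested on very few reads, with 3, 8 and 5 counts in R6/1 retinas and 0, 0 and 1 count in wt retinas. Each R6/1 pool was above each wt pool, and the sums of 16 and 1 counts gave a ratio of 14.7 per total count, with an exact 95% interval of 2.29 to 618 that covers counting error only. The edgeR adjusted p was 0.0303, the call ended when R6/1 replicate 3, wt replicate 1 or wt replicate 2 was left out (adjusted p = 0.0579, 0.0997 and 0.0887), and without R6/1 replicate 2 the gene fell under the minimum of 10 counts. DESeq2 did not call Egr2, and its 2 genes called higher were Junb and Egr1. Of 18 settings other than the main fit, 14 gave an adjusted p for Egr2 and 9 called it.

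Egr1 was at 69.3, 38.4 and 32.3 CPM in R6/1 retinas and at 13.8, 21.5 and 14.8 CPM in wt retinas. Every R6/1 pool was above every wt pool, and R6/1 replicate 1 was far above the other R6/1 pools. The log2 fold change of 1.52 (SE 0.41) was not called (edgeR adjusted p = 0.0751), but was called by DESeq2 (adjusted p = 0.0012), by limma-voom (0.0031) and by edgeR without R6/1 replicate 1 (log2 fold change 1.12, adjusted p = 0.0128), with up to 0.209 when another library was left out. Egr3 was at 1.64, 3.03 and 0.776 CPM in R6/1 retinas and at 0.536, 1.02 and 0.674 CPM in wt retinas. The groups overlapped, since R6/1 replicate 3 was below wt replicate 2, and the log2 fold change of 1.33 (SE 0.46) was not called (edgeR adjusted p = 0.0551). It was 1.69 without that R6/1 pool (adjusted p = 0.0045) and 0.74 without R6/1 replicate 2 (adjusted p = 0.252).

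Fosb was at 3.71, 4.22 and 4.43 CPM in R6/1 retinas and at 3.15, 2.78 and 3.09 CPM in wt retinas. The groups did not overlap, and the log2 fold change of 0.48 (SE 0.18) was not called (edgeR adjusted p = 0.0692). Fos was at 13.9, 12.4 and 14.5 CPM in R6/1 retinas and at 7.77, 13.5 and 11.1 CPM in wt retinas. The groups overlapped through wt replicate 2, with a log2 fold change of 0.36 (SE 0.17, edgeR adjusted p = 0.146, or 0.0240 without that wt pool and 0.428 without wt replicate 1). Nr4a1 was at 15.1, 20.5 and 16.8 CPM in R6/1 retinas and at 12.8, 18.2 and 15.4 CPM in wt retinas. Its pools interleaved, with a log2 fold change of 0.21 (SE 0.14, edgeR adjusted p = 0.312). Arc, at 0.436, 0.617 and 0.499 CPM in R6/1 retinas and 0.469, 0.878 and 1.01 CPM in wt retinas, was also near the lower end of detection and overlapped (log2 fold change −0.57, SE 0.44, edgeR adjusted p = 0.392). Over the 9 genes, Fosb, Junb, Egr1 and Egr2 had every R6/1 pool above every wt pool (4 genes, against 15.3% of all genes tested) and Npas4 had every R6/1 pool below (1 gene, against 23.0%). Egr2 was tested only through its counts in R6/1 pools, so its place among the 4 is a description.

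**Figure D4:**
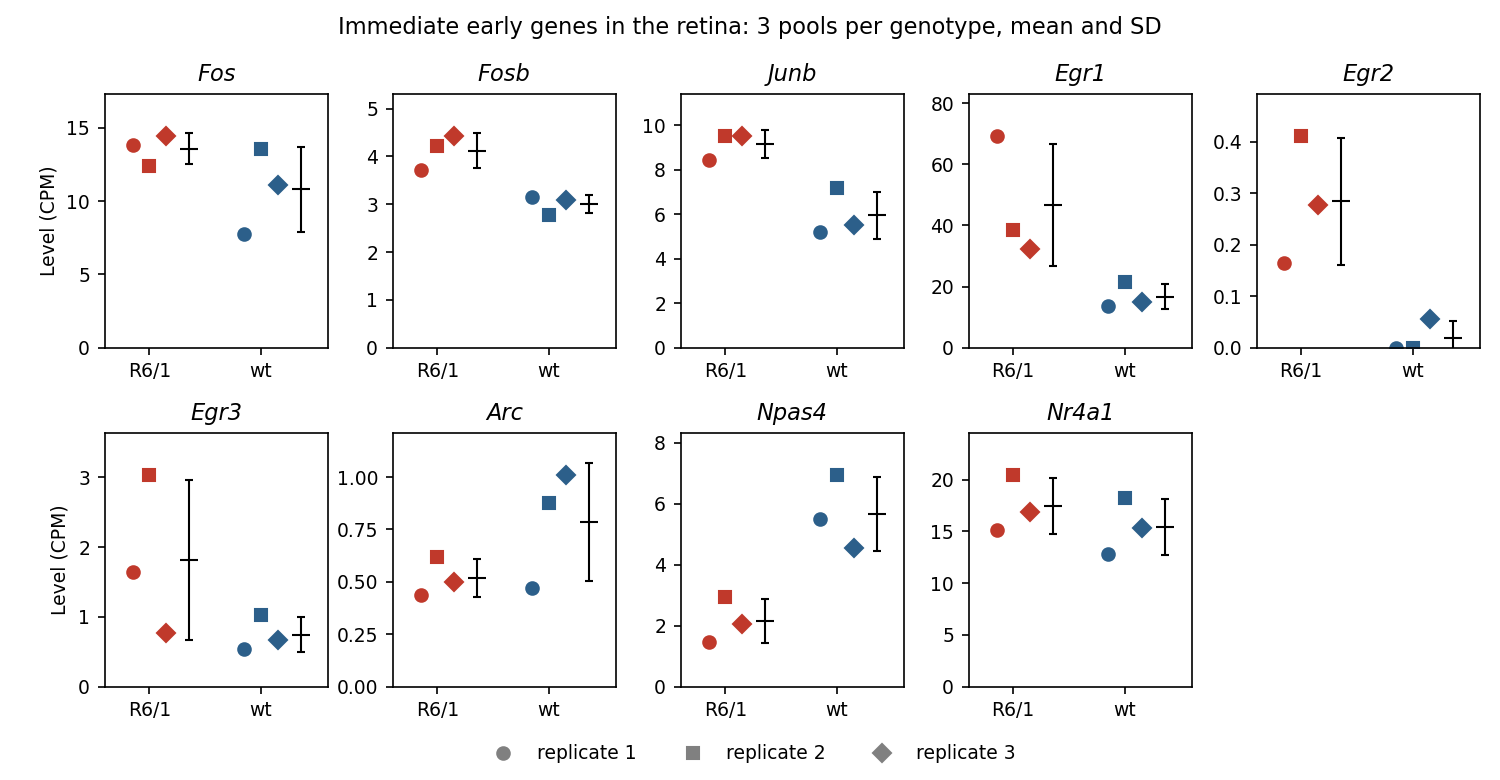
Levels of 9 immediate early genes in the retina (CPM, linear axes from 0), with 1 marker per pool for R6/1 on the left and wt on the right of each panel, and a black bar for the mean and SD of 3 pools. Egr1 is at 32.3 to 69.3 CPM in R6/1 and 13.8 to 21.5 CPM in wt, and Npas4 at 1.47 to 2.93 CPM in R6/1 and 4.55 to 6.95 CPM in wt.

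The summed level of the 10 genes was 81.2 to 114 CPM in R6/1 retinas and 49.2 to 72.1 CPM in wt retinas, and Egr1 made up most of the gap. The rod markers given above fell in the R6/1 retina (8 of 8 called lower). With library totals in place of TMM the median over all genes was 0.13 on the log2 scale, against 0.01 with TMM, and 7 genes were called, 6 of them higher (against 23.4% of all genes) and Npas4 lower (against 8.71%). With TMM factors computed without rod and cone genes, 3 were called, where of all 16582 genes tested 2106 were called lower and 1587 higher. Ganglion and amacrine cell markers were at 668 to 762 CPM in R6/1 retinas and 1135 to 1188 CPM in wt retinas (9 of 10 called lower), and microglia markers at 52.0 to 60.8 CPM in R6/1 retinas and 33.5 to 35.3 CPM in wt retinas (4 of 8 called higher). Müller glia and astrocyte markers were at 2494 to 2773 CPM in R6/1 retinas and 2986 to 3462 CPM in wt retinas, with 1 of 8 called lower and 2 higher. Glul was the one called lower (log2 fold change −0.37), and Gfap (1.65) and Aldh1l1 (0.44) were called higher. Of the 8 fold changes only 3 were negative, with a median of 0.063, so the lower sum does not stand for most of these markers. The part of these cell types in the retinal values was not tested. Over all genes, 12.7% were called lower and 9.58% higher in the R6/1 retina by edgeR with TMM. Without R6/1 replicate 3, the pool with high lens markers, Junb, Npas4 and Egr3 were called and Egr2 was not.

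Pairs of the 9 genes followed each other less closely over the 6 retinal libraries than pairs did in the striatum, as a description (median r of 0.478 over 36 pairs, of which 12 were negative). The most negative pair was Egr1 with Npas4 at −0.856, and the highest was Fosb with Egr2 at 0.941. Closest to the average of the 9 were Cmtm6 (r = 0.989), Naa30 (r = 0.980), Ubtf (r = 0.979), Cadps2 (r = 0.979) and Txnrd1 (r = 0.977), out of 10396 genes. Cmtm6, which encodes a membrane protein that stabilises PD-L1, was at 18.9 CPM on average in R6/1 retinas and at 17.4 CPM in wt retinas.

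The genotype effect itself was then compared between the tissues, as the fold change in the retina minus that in the striatum over all 12 libraries. It differed for Egr2 (difference 5.44, SE 0.89, edgeR adjusted p = 0.0021), Egr1 (2.23, SE 0.42, adjusted p = 0.0135) and Junb (1.13, SE 0.27, adjusted p = 0.0214), which were 3 of 9 genes, against 3.38% of all genes with a higher effect in the retina. For each of these 3 genes the fold change was positive in the retina and negative in the striatum. Egr2 reached the minimum of 10 retinal counts only through R6/1 pools, so its place among the 3 is a description. The call for Egr1 held in each of 12 fits that left out a library. Egr2 could not be fitted without R6/1 retina replicate 2 and was called in the other 11, with differences of 5.002 to 7.45, the highest without wt retina replicate 3, which holds its only wt retinal count. Junb lost its call without R6/1 retina replicate 2 or 3 and without wt retina replicate 1 or 3, with adjusted p-values of at most 0.0660. Egr3 (2.37, adjusted p = 0.0582, over fits that left out a library 0.0236 to 0.158, and called when R6/1 retina 3 or wt striatum 2 was left out) and Nr4a1 (0.92, adjusted p = 0.0868, or 0.0205 without R6/1 striatum replicate 3 and up to 0.176 in the other fits) missed the threshold in edgeR. Both were called by DESeq2 (5 of 9 genes in all, against 4.27% of all genes). With the pool as a block, Nr4a1 was called by edgeR (adjusted p = 0.0350) beside Egr1, Egr2 and Junb. For Npas4, negative in both tissues, the difference was −0.67 (SE 0.40, edgeR adjusted p = 0.354), and for Arc it was 0.34 (adjusted p = 0.859).

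**Figure D5:**
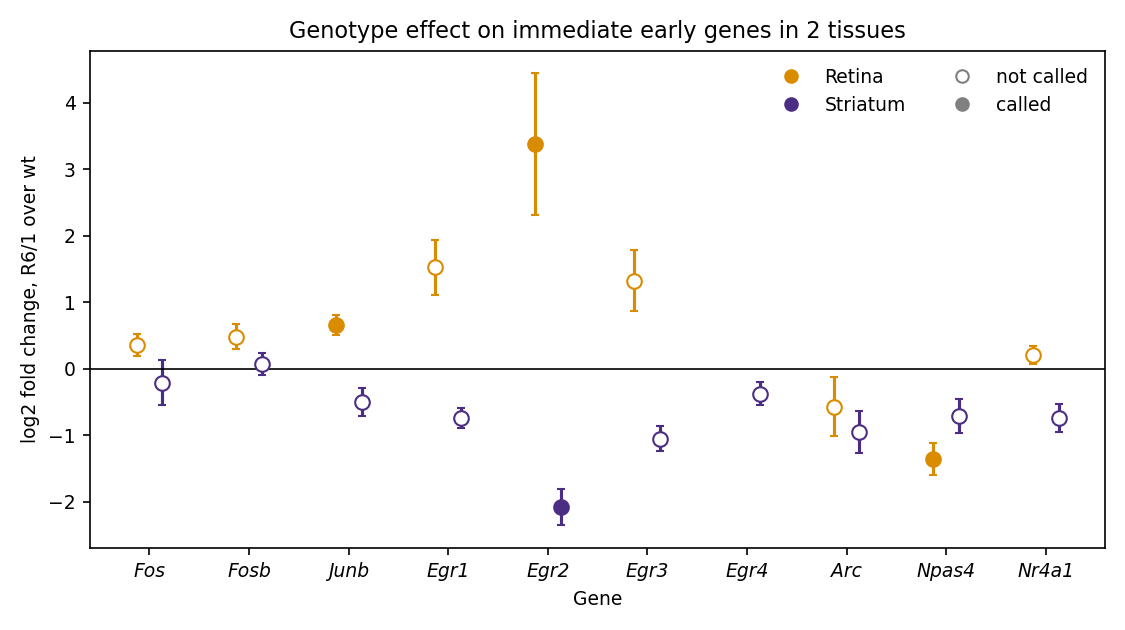
log2 fold change of R6/1 over wt for each immediate early gene in retina (orange) and striatum (purple), with bars of 1 SE and filled circles for genes called by edgeR without a replicate block. Egr2, at 3.38 in the retina and −2.08 in the striatum, is furthest apart, and Npas4 is negative in both tissues.

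Levels were also compared between the tissues of 1 genotype. In R6/1 mice 9 of the 10 genes were called lower in the retina than in its striatal counterpart (against 36.9% of all genes), and in wt mice 9 were (against 38.5%), the exception in each being Fos. For these 9 every retinal pool was below every striatal pool, against 38.6% of all genes tested in R6/1 mice and 39.7% in wt mice. These comparisons share the libraries used above. Egr4, listed at 0 in every retinal library, passed the minimum of 10 counts only through the striatum. So did Egr2 in wt mice, with 1 count in wt retinas and 362 in wt striata. The places of Egr4, and of Egr2 in wt mice, among the 9 are therefore a description. Egr3 averaged 1.82 ± 1.14 CPM in R6/1 retinas and 74.8 ± 13.4 CPM in R6/1 striata, a log2 fold change of retina over striatum of −5.33, and 0.744 ± 0.252 CPM in wt retinas and 155 ± 31.5 CPM in wt striata, a log2 fold change of −7.71 (SD, n = 3 pools each, edgeR adjusted p = 6.12e-05 and 2.73e-08). Arc averaged 0.517 ± 0.0919 CPM in R6/1 retinas and 32.9 ± 12.9 CPM in R6/1 striata, and 0.786 ± 0.282 CPM in wt retinas and 63.7 ± 16.6 CPM in wt striata. Per kilobase both were among the 3 most abundant of the set in the striatum and had few counts in the retina. Egr1 averaged 46.7 ± 19.8 CPM in R6/1 retinas and 115 ± 23.4 CPM in R6/1 striata, and 16.7 ± 4.19 CPM in wt retinas and 191 ± 13.8 CPM in wt striata. The log2 fold change of retina over striatum was −1.29 in R6/1 mice (edgeR adjusted p = 0.0258) and −3.53 in wt mice (adjusted p = 5.28e-08), and in R6/1 mice the call for Egr1 ended without retina replicate 2 or without striatum replicate 1 or 3 (adjusted p of up to 0.0860). The call for Nr4a1 in R6/1 mice (log2 fold change −0.59, edgeR adjusted p = 0.0230) ended without retina replicate 1 or 3 (adjusted p of up to 0.0875). Fos averaged 13.6 ± 1.06 CPM in R6/1 retinas and 8.24 ± 4.002 CPM in R6/1 striata (log2 fold change 0.73, edgeR adjusted p = 0.0805, or 0.0276 with the pool as a block and 3.49e-04 without striatum replicate 3), and 10.8 ± 2.90 CPM in wt retinas and 9.52 ± 1.78 CPM in wt striata (log2 fold change 0.18, adjusted p = 0.462). Deviations of equally numbered R6/1 retinal and striatal pools went together (correlations of 0.242, 0.119 and 0.179), and those of wt pools did not.

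Per kilobase of exonic length, the order of the levels also differed. In R6/1 retinas Egr1 came first at 10.4 CPM per kilobase, followed by Fos (5.77), Nr4a1 (4.98) and Junb (3.98), whereas in wt retinas Fos (4.59), Nr4a1 (4.41) and Egr1 (3.73) came first and differed by less than the spread of the Fos pools. In R6/1 striata the order was Egr1 at 25.6 CPM per kilobase, Egr3 (17.0), Arc (10.8), Nr4a1 (7.56) and Junb (7.41), and in wt striata Egr1 (42.7), Egr3 (35.1), Arc (20.8), Nr4a1 (12.6) and Junb (10.5). Egr2 (0.478 in R6/1 striata and 2.02 in wt striata) and Fosb (2.02 in R6/1 striata and 1.91 in wt striata) were at the low end in the striatum, with Egr2 last only in R6/1.

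Relatives of these genes and genes that act before and after them were read from the same fits. Of 8 other AP-1 and ATF genes tested, 3 were called higher in the R6/1 retina (against 9.58% of all genes) and none lower (against 12.7%). Jun, the main partner of FOS, averaged 41.2 ± 3.36 CPM in R6/1 retinas and 24.1 ± 1.64 CPM in wt retinas (log2 fold change 0.81, SE 0.08, edgeR adjusted p = 1.38e-06), and Jund 32.0 ± 3.88 CPM and 23.4 ± 1.83 CPM in the same groups (0.48, SE 0.10, adjusted p = 0.0015). Fosl1, the other one called, averaged 0.410 CPM in R6/1 retinas and 0.0244 CPM in wt retinas. It rested on few counts and passed the minimum of 10 counts only through R6/1 retinas, so its place among the 3 is a description. DESeq2 called 2 of the 8 higher. In the striatum none of the 8 was called in edgeR without the block, where 2 had an unadjusted p under 0.05, while 1 was called with it and 1 by DESeq2. Nr4a2 and Nr4a3 were called in neither tissue by edgeR, DESeq2 or limma-voom, and neither had an unadjusted p under 0.05 (log2 fold changes of −0.068 and −0.19 in the retina and −0.69 and −0.19 in the striatum).

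Of the other rapid response genes, 7 of 47 tested were called higher (against 9.58% of all genes) and 12 lower (against 12.7%) in the R6/1 retina. Trib1, a pseudokinase gene, averaged 49.7 ± 2.85 CPM in R6/1 retinas and 26.4 ± 1.10 CPM in wt retinas (log2 fold change 0.94, SE 0.07, edgeR adjusted p = 8.52e-08), and Sgk1, a kinase gene induced by glucocorticoids, 251 ± 7.29 CPM in R6/1 retinas and 442 ± 25.5 CPM in wt retinas (−0.79, SE 0.06, adjusted p = 1.26e-07). Dusp4, a phosphatase gene that limits MAP kinase signalling, and the clock gene Per1 were called lower with log2 fold changes of −0.85 and −0.61. In the R6/1 striatum 2 of 48 were called lower (against 1.32% of all genes) and none higher, with 41 negative fold changes and a median of −0.33. With the block 15 were called lower (against 7.11%), and by DESeq2 12 (against 4.81%). The 2 were Arl4d (−0.76, SE 0.14, edgeR adjusted p = 0.0356) and Dusp6 (−0.65, SE 0.13, adjusted p = 0.0475), a phosphatase gene of ERK signalling.

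Late response and effector genes, which follow the factors above and act at synapses and in secretion, were called lower in both tissues, 6 of 17 in the R6/1 retina (against 12.7% of all genes) and 4 of 18 in the R6/1 striatum (against 1.32%, and 5 against 7.11% with the block), and none was called higher by edgeR, DESeq2 or limma-voom. Nptx2, a secreted pentraxin that clusters AMPA receptors, was called in both, with 8.99 ± 0.472 CPM in R6/1 retinas and 17.5 ± 1.51 CPM in wt retinas (log2 fold change −0.93, edgeR adjusted p = 7.59e-06), and 9.91 ± 1.07 CPM in R6/1 striata and 22.2 ± 5.70 CPM in wt striata (−1.16, adjusted p = 0.0376). The retinal calls included Nptx1 (−1.26), Nrn1 (−0.78) and Scg2 (−0.46), the last a secretogranin gene. In the striatum Homer1, a postsynaptic scaffold gene whose short form is activity-induced, averaged 143 ± 24.2 CPM in R6/1 pools and 319 ± 63.5 CPM in wt pools (−1.16, adjusted p = 0.0412), and the other calls were Inhba (−1.71) and Pim1 (−1.26).

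Among upstream factors and coactivators (CREB, MEF2 and ETS genes, their partners and those of SRF), 4 of 18 were called lower (against 12.7% of all genes) and 1 higher (against 9.58%) in the R6/1 retina. None was called in the striatum by edgeR without the block, by DESeq2 or by limma-voom, against 1 lower with the block. Mef2c, a calcium-responsive factor, averaged 128 ± 11.3 CPM in R6/1 retinas and 280 ± 20.0 CPM in wt retinas (log2 fold change −1.10, SE 0.07, edgeR adjusted p = 1.25e-08), and the CREB coactivator Crtc3 was at −0.47. In the striatum 6 had an unadjusted p under 0.05, and the 4 with the smallest p had unadjusted p-values of 0.0097 to 0.0269, with Creb1, Crebbp and Ep300 at 0.21 to 0.26 and Crtc1 at −0.26. Among upstream kinases and phosphatases, 2 of 23 were called lower (against 12.7% of all genes) and 4 higher (against 9.58%) in the R6/1 retina. In the striatum 2 were called lower (against 1.32%) and none higher, and with the block 10 lower (against 7.11%). The 2 called without it were Ptpn5, which encodes the striatum-enriched phosphatase STEP, at 211 ± 32.3 CPM in R6/1 striata and 344 ± 21.2 CPM in wt striata (−0.71, SE 0.12, adjusted p = 0.0289), and Ppp3ca, the catalytic subunit of calcineurin (−0.85, SE 0.15, adjusted p = 0.0419). Camk2b was called higher in the R6/1 retina (0.43, SE 0.06, adjusted p = 4.98e-05). None of 6 corepressors of EGR and partners of NPAS4 and NR4A1 was called in either tissue by edgeR without the block, by DESeq2 or by limma-voom, with 3 at an unadjusted p under 0.05 in the retina and 1 in the striatum. Heat shock genes, read as a check on stress during dissection, had 2 of 12 called higher (against 9.58% of all genes) and 1 lower (against 12.7%) in the R6/1 retina and none by edgeR in the striatum (2 at an unadjusted p under 0.05, 1 called by DESeq2).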

How the data were processed

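RNA from pools of 3 to 4 mice was made into stranded mRNA libraries. The authors trimmed the reads with Trimmomatic, mapped them to GRCm38/mm10 with Salmon and deposited estimated counts per gene as whole numbers, not normalized, after removing genes with low counts. Versions, the annotation and the step from transcripts to genes are not given in the sources used here.

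Groups came from the sample labels. A gene needed 10 counts summed over the libraries of a comparison (in each tissue, for the difference between tissues), so that the genes dropped within a tissue were those at 0. edgeR 4.0.16 in R 4.3.3 (TMM factors, robust quasi-likelihood F-test, Benjamini-Hochberg over all genes) gave fold changes and adjusted p-values, and the SE is the fold change over the root of F. The fits were tested on simulated data. The fits were repeated with DESeq2 1.42.0, with limma-voom (limma 3.58.1), with other scaling, filters and spread, a replicate block, 1 fit of 12 libraries, leaving out each library and an adjusted p under 0.01. DESeq2 with the block was added after seeing the data. Counts of genes at an unadjusted p under 0.05 are given without a share over all genes and are descriptions. log2 CPM used a prior count of 2. Member coordinates and exonic lengths came from GENCODE vM21, and promoters from RefSeq on GRCm38.p6. Tables and plots were made with Python 3.11.15, pandas 2.3.3, scipy 1.17.1 and matplotlib 3.10.9.

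The 10 genes, the lists of other genes and the rule for naming genes were chosen with earlier results of these data known. The rule names all 10 genes, up to 4 genes of each other list with the smallest p in a tissue, and the 5 genes most like the average of the 10. Whether equal replicate numbers pair pools was checked by the correlation, over 10445 genes, of each pool's departure from its group mean, and pairing was taken where all 3 correlations were over 0.1 (R6/1 and wt striata, and the 2 tissues of R6/1 mice). This rule uses these data, since no label says which pools match. R6/1 and wt retinas, which came from the same animals as the striata, did not meet it. Retina and striatum share animals in both genotypes, but the main fits between tissues took the libraries as independent. Lists of oligodendrocyte, endothelial and red blood cell markers were read as well. Red blood cell markers were at 19.8 to 31.6 CPM in R6/1 retinas and 40.7 to 58.2 CPM in wt retinas. Of these, 3 of 5 (against 12.7% of all genes) and, in striata, 2 of 5 (against 1.32%) were called lower. Of oligodendrocyte and endothelial markers, 1 of 4 and 1 of 9 were called higher (against 9.58% of all genes) and 1 of 9 endothelial markers lower (against 12.7%) in the R6/1 retina. None of either list was called in the striatum by edgeR (3 and 2 at an unadjusted p under 0.05, 1 oligodendrocyte marker called by DESeq2).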

Additional observations from a re-analysis of the deposited data

Results flagged for a closer look

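The genotype effect differed between retina and striatum by the test of the difference itself (edgeR, adjusted p under 0.05 over all genes) for 3 of the immediate early genes (of 9 tested) and for 15 of the other genes named by the rule (of 48 tested), against 8.24% of all genes in either direction. The other genes were named for the smallest p of their list in one of the tissues, so that their count is a description. Values are the log2 fold change of R6/1 over wt in the retina minus that in the striatum. Egr2 was at 5.44, Egr1 at 2.23 and Junb at 1.13, each with a positive fold change in the retina and a negative one in the striatum.

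Among AP-1 genes, Jun was at 1.01 and Jund at 0.68. Of the rapid response genes, Trib1 was at 1.63 and Dusp6 at 0.76. Late response genes with a higher effect in the retina were Inhba at 1.603, Pim1 at 1.23 and Homer1 at 1.09, and the secretogranin gene Scg2 had a lower one at −0.32. Signalling genes were Ptpn5 at 1.15, Camk2b at 0.93 and Ppp3ca at 0.93. The coactivator gene Crtc3 was at −0.65 and the ETS factor gene Elk4 at −0.55. Of the heat shock genes, Hsph1 was at 0.36 and Hsp90aa1 at −0.50.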

How the results depend on the processing

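The number of immediate early genes called depended on the settings in the striatum. From 1 of 10 in the R6/1 striatum it went to 2 with library totals and with edgeR's own expression filter, to 3 with limma-voom, non-robust spread and 1 fit of 12 libraries, to 4 with DESeq2, to 6 with the replicate block and with DESeq2 with that block, and to 0 at an adjusted p under 0.01. Leaving out single libraries gave 0 to 3, while the number of all genes called lower, 220 with every library, was 1 when wt pool 1 was left out and 1201 when wt pool 2 was. That number also rose with the settings. It was 247 with limma-voom, 253 with non-robust spread, 887 with 1 fit of 12 libraries, 805 with DESeq2, 1190 with the block and 875 with DESeq2 with the block. In the retina 3 were called, 4 with limma-voom and with non-robust spread, 7 with library totals, and 2 at an adjusted p under 0.01 and with DESeq2 with the block (2 to 4 when single libraries were left out). Over all genes in the retina, library totals called 3886 higher, against 1588 in the main fit. In the retina the pairing rule given above was not met, although the animals were the same. With the replicate block there, Egr3 was called (edgeR adjusted p = 0.0310) and Egr2 was not (0.0532). For the difference between tissues the count of 3 went to 5 with DESeq2 and to 1 at an adjusted p under 0.01, and to 1 to 4 when single libraries were left out, the lowest without R6/1 retina replicate 2. Between R6/1 retina and striatum 8 to 9 were called when single libraries were left out. When single libraries were left out, the striatal log2 fold change ran from −0.65 to 0.046 for Fos and from −0.071 to 0.25 for Fosb, turning its sign without R6/1 replicate 1, and that of Fos between wt tissues ran from −0.010 to 0.36, turning without wt retina replicate 2. The cause of these changes was not tested, beyond the smaller number of libraries where one was left out. The block changed no other count by over 1.5 times. The 5 genes nearest to the average of the set in each tissue were the same with a prior count of 0.5. With 3 pools per group, the counts of Egr2, Egr3 and Arc in the retina limit what can be read there.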
